A study of Mus musculus with 6 samples.

Results

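The EGF receptor system was examined through 10 genes taken by symbol from the deposited count table: the ligand genes Areg, Hbegf, Tgfa, Btc, Ereg, Epgn and Egf, and the receptor genes Egfr, Erbb2 and Erbb3. All 10 were present among the 23478 genes of the table. RNA had been sequenced from alveolar type 2 (AT2) cells, the surfactant-making epithelial cells of the lung, of adult mice of mixed background. A first group carried a conditional deletion of Abca3, the transporter that loads phospholipid into the lamellar bodies of these cells (Abca3 cKO, n = 3), and the second group was labelled control (n = 3). Both groups had received tamoxifen, and 6 days of treatment or 6 days since treatment fit the wording of the labels, the series text giving the latter. The labels name neither the Cre driver, the deleted exons nor the genotype of the controls. They do not say whether each library came from a separate animal. The p-values thus cover the spread among the libraries only, which may be technical in part. AT2 cells had been enriched by depleting other cells, and their RNA was amplified before sequencing. In such bulk samples fewer cells of a type and less RNA per cell cannot be told apart.

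EGF family ligands are made as membrane-anchored precursors, cut free by metalloproteases of the ADAM family, and bind the EGF receptor on the same or a neighbouring cell. The occupied receptor pairs with itself or with ERBB2, which has no known ligand of its own, or with ERBB3, which binds neuregulins and has little kinase activity, and signals through RAS and ERK to immediate early genes. In the lung epithelium this system is known for its part in proliferation and repair after injury.

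In Abca3 cKO cells Areg, which encodes the ligand amphiregulin, fell to 20.5% of its control level (95% interval 15.6% to 26.9%), and it was the 1 member that passed the test, in which 0.117% of all genes tested were called lower and 0.262% higher. The other 3 ligands with enough reads had lower means in Abca3 cKO without passing: Hbegf at 57.0%, Btc at 71.9% and Tgfa at 81.8% of control. The receptors stayed within a narrower range, with Egfr at 85.5%, Erbb3 at 99.1% and Erbb2 at 114% of control. Ereg, Epgn and Egf were close to the limit of detection in both groups. Levels are CPM, counts scaled to a common depth with library sizes adjusted by TMM, fold changes are Abca3 cKO over control, and a gene was called at a Benjamini-Hochberg adjusted p under 0.05 by edgeR's quasi-likelihood test over all 14477 genes that passed the filter on low counts.

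The promoter of Areg is shown because Areg carried the largest change of the family. The window holds the 250 bases before its annotated start, chr5:91139349-91139598 on the plus strand of GRCm38.p6, as RefSeq gives it. Capitals mark the cAMP response element TGACGTCA, whose first base lies at position -61, and the TATA box TATAAA, whose first base lies at position -31, where -1 is the base before the start.
Areg promoter: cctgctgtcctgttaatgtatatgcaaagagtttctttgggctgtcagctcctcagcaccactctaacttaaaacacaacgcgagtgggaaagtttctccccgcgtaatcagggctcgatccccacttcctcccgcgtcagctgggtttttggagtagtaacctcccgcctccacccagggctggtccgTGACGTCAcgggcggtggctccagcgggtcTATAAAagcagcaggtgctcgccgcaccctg
Both strands were searched. TGACGTCA stood in 1.55% of the 32851 RefSeq promoter windows of this length and TATAAA in 12.4%. RefSeq windows were matched for 7 members, Areg, Btc, Egf, Egfr, Epgn, Erbb2 and Tgfa, and TGACGTCA was found in that of Areg alone among these windows. TATAAA was also found in that of Epgn at position -86, the TEAD motif GGAATG in that of Erbb2 at position -88 (12.6% of all windows), and the AP-1 motif TGANTCA in none of them (6.75% of all windows). These matches describe letters in a window and are not measured binding sites.

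Facts of the libraries bear on all values. Total counts ran from 23531330 to 26071229. Abca3 itself stood at 571, 611 and 606 CPM in Abca3 cKO and at 635, 694 and 689 CPM in controls, a level that does not check the labels, since the deleted exons are not named and each count covers the whole gene. AT2 markers were abundant in every library: the 9 examined together made 90456 to 101779 CPM in Abca3 cKO and 76894 to 91124 CPM in controls, and edgeR called 1 of them higher in Abca3 cKO, Napsa, a call lost in 5 of the 6 fits without 1 library, where DESeq2 called 3. Napsa shares 18.9% of its exon sequence with a gene on the opposite strand. At an unadjusted p under 0.05 in edgeR, 6 of the 9 were higher and 1 lower, against 5.07% and 4.16% of all genes tested. The lower 1 was Sftpc, at -0.36 on the log2 scale. The groups did not overlap for 7 higher and 1 lower, against 7.34% and 6.76%. The median log2 fold change of the 9 was 0.37. Club cell markers were also abundant, with 52396 to 82647 CPM in Abca3 cKO and 63418 to 81770 CPM in controls over 4 genes. Sex-linked genes set control replicate 2 apart, with Xist at 2345 CPM against 5.36 to 9.36 CPM in the other libraries and 0 counts of the Y-linked gene Ddx3y. Control replicates 1 and 3 had 1058 and 1189 counts of Ddx3y, so control replicate 2 did not come from the same animal as these. In the edgeR fit without control replicate 2 the log2 fold change was -0.31 for Tgfa, -0.27 for Btc and -0.17 for Egfr. It was 0.16 for Erbb2 and 0.084 for Erbb3, and none of these members was called. The values of Areg and Hbegf in that fit are given below. Of the 14477 genes tested 55 were called, or 0.38%, and 17 of them were lower in Abca3 cKO, or 0.117%, and 38 higher, or 0.262%. DESeq2 called 1.5% of the genes to which it gave an adjusted p, and in edgeR the unadjusted p was under 0.05 for 9.23%.

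Areg (chromosome 5, 91139599 to 91148432, plus strand, GRCm38) had 130, 177 and 149 counts in the 3 Abca3 cKO libraries and 617, 852 and 780 counts in the controls. On the scaled CPM level this was 5.49, 6.89 and 6.02 CPM in Abca3 cKO and 26.1, 32.9 and 30.9 CPM in controls. Every Abca3 cKO library lay far below every control, and the spread within each group was small beside the gap. The means were 6.13 ± 0.709 CPM in Abca3 cKO and 29.97 ± 3.52 CPM in controls (SD, n = 3 each). This was a 4.88-fold lower level, or a log2 fold change of -2.29 with SE 0.184 and a 95% interval of -2.68 to -1.89 (edgeR, adjusted p = 7.36e-05). Among the 17 genes called lower, Areg had the smallest p and the second largest fold change, after the NF-kB inhibitor gene Tnip3. The exact two-sided permutation test of log2 CPM gave p = 0.1, the smallest that 3 against 3 libraries allow.

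The fall of Areg passed in each of 6 edgeR fits that left out 1 library and in the 8 other settings tried with edgeR, DESeq2 or limma, with log2 fold changes from -2.38 to -2.05 and adjusted p-values from 1.10e-25 to 0.0232. Without control replicate 2 the log2 fold change was -2.22 (adjusted p = 0.000390 by edgeR). On the authors' RPKM values, which divide reads by gene length and depth, Areg stood at 3.17, 3.82 and 3.63 in Abca3 cKO and at 14.9, 19.5 and 19.3 in controls. Its exons overlap those of no other gene in GENCODE M21.

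**Figure D1:**
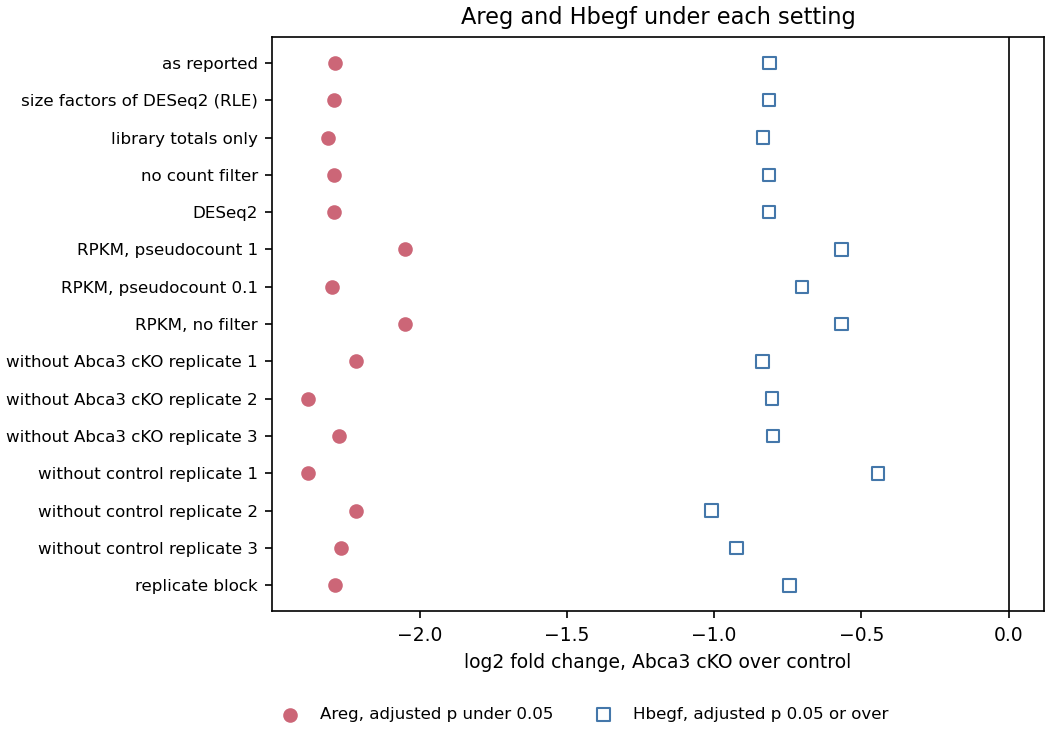
Log2 fold change of Areg (circles) and Hbegf (squares) in Abca3 cKO over control, on the horizontal axis, for the fit as reported and 14 alternative settings, 1 per line; filled symbols have an adjusted p under 0.05. Areg stays between -2.38 and -2.05 over the alternatives, while Hbegf moves between -1.01 and -0.44 and is open throughout.

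Areg is also made by lymphoid cells and mast cells, so markers of these were examined beside it. Of 5 mast cell and basophil markers, Ms4a2, Mcpt8 and Fcer1a had 0 counts in every library, and the protease gene Cpa3 was higher in Abca3 cKO (2.40 ± 0.447 CPM) than in controls (0.773 ± 0.393 CPM), without passing (adjusted p = 0.313 by edgeR). The 7 markers of group 2 innate lymphoid cells and T cells summed to 1.91 to 2.53 CPM in Abca3 cKO and to 3.78 to 4.28 CPM in controls, so the sums did not overlap. Thy1, a surface protein of T cells that fibroblasts and neurons also carry, was the one of them with a tested difference at an unadjusted p under 0.05, at 0.641 ± 0.288 against 2.34 ± 0.886 CPM (adjusted p = 0.280), while the T cell receptor gene Cd3e averaged 0.0269 CPM in Abca3 cKO and 0.0784 CPM in controls. Without Thy1 the sums of the remaining markers overlapped between the groups. Gata3, Il7r and Il13 averaged 0.468, 0.146 and 0.0281 CPM in Abca3 cKO against 0.326, 0.113 and 0 CPM in controls. Il1rl1 and Foxp3, like Thy1 and Cd3e, had lower means in Abca3 cKO. Of the 7, only 2, Thy1 and Foxp3, passed the filter on low counts and were tested, and neither was called. The part of these cells in the Areg level was not tested.

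Hbegf (chromosome 18, 36504927 to 36515805, minus strand) encodes heparin-binding EGF-like growth factor, a ligand of the EGF receptor and of ERBB4. It stood at 14.0, 13.4 and 13.3 CPM in Abca3 cKO and at 34.6, 16.8 and 20.1 CPM in controls. The Abca3 cKO libraries lay close together below all controls, and control replicate 1 was well above the other controls. The log2 fold change was -0.81 (SE 0.236, 95% interval -1.32 to -0.30), with an unadjusted p of 0.00427 and an adjusted p of 0.223 by edgeR, and Hbegf was not called. Without control replicate 1 the log2 fold change was -0.44 (adjusted p = 0.652), and without control replicate 2 it was -1.01 (adjusted p = 0.0899). DESeq2 gave an adjusted p of 0.0704.

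Tgfa (chromosome 6, 86195223 to 86275719, plus strand), the gene of transforming growth factor alpha, was the ligand with the most reads. It stood at 38.7, 43.2 and 36.7 CPM in Abca3 cKO and at 50.7, 46.7 and 47.6 CPM in controls. The groups did not overlap, but they lay close, with Abca3 cKO replicate 2 just under the lowest control. By edgeR the difference was -0.29 on the log2 scale (SE 0.131, 95% interval -0.57 to -0.0094), with an unadjusted p of 0.0437 and an adjusted p of 0.513. Its exons share 118 bases, or 1.82%, with a predicted gene on the opposite strand.

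Btc (chromosome 5, 91357261 to 91402994, minus strand) encodes betacellulin, which binds both the EGF receptor and ERBB4. It stood at 5.61, 4.79 and 4.32 CPM in Abca3 cKO and at 6.42, 8.65 and 5.40 CPM in controls. The highest Abca3 cKO library lay above the lowest control, so the groups overlapped. Its log2 fold change of -0.48 had an SE of 0.277 and a 95% interval of -1.07 to 0.12 (edgeR adjusted p = 0.663).

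The 3 remaining ligands did not pass the filter on low counts. Ereg, the gene of epiregulin (chromosome 5, 91074622 to 91093646, plus strand), had 9, 9 and 0 counts in Abca3 cKO and 10, 7 and 9 in controls. Egf itself (chromosome 3, 129677565 to 129755316, minus strand) had 2, 3 and 20 counts in Abca3 cKO and 10, 3 and 7 in controls. Epgn, the gene of epigen (chromosome 5, 91027464 to 91035215, plus strand), had 0 counts in every Abca3 cKO library and 1, 0 and 4 in controls. A count of 0 allows up to 3 counts, or 0.117 to 0.127 CPM in the Abca3 cKO libraries, a limit that covers counting error only, and the Epgn level of controls averaged 0.0670 CPM. For Epgn a difference was not detectable at this depth. Without a count filter edgeR gave adjusted p-values of 0.949 for Ereg, 0.973 for Egf and 0.741 for Epgn. Exons of Ereg and Egf overlap other genes on the opposite strand, and the amplification kit does not mark strand.

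**Figure D2:**
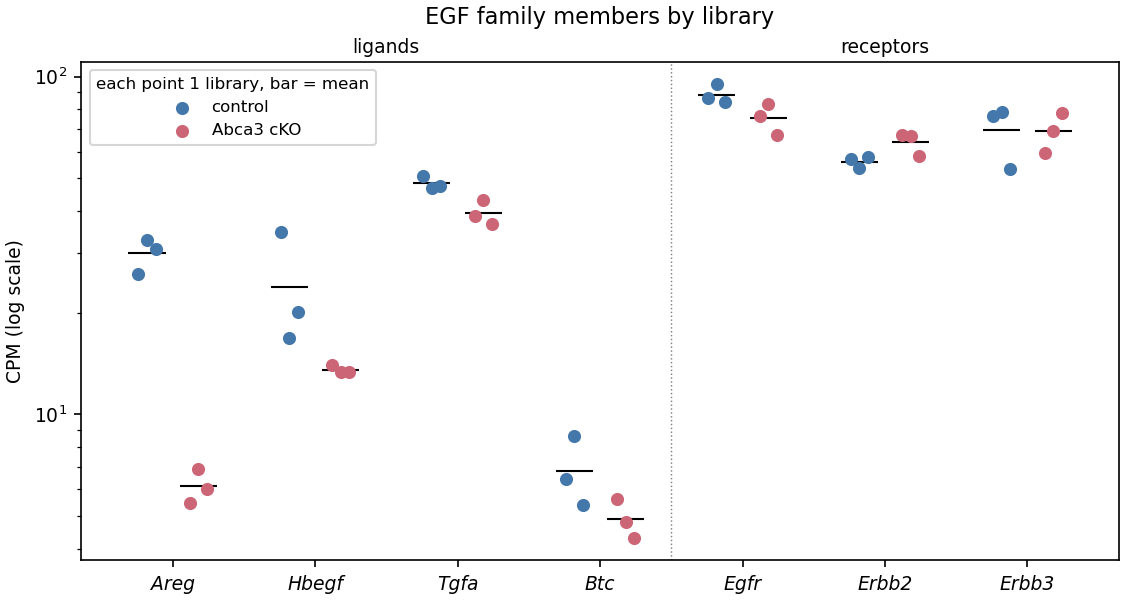
CPM on a log scale (vertical axis) for the 4 tested ligands and 3 tested receptors; each point is 1 library, blue for control and red for Abca3 cKO, and bars are group means (n = 3). The Areg points fall into separate bands, 5.49 to 6.89 CPM in Abca3 cKO and 26.1 to 32.9 CPM in controls, and the receptor points lie close together.

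Among the receptors, Egfr (chromosome 11, 16752203 to 16918158, plus strand), the receptor of all 7 ligands, stood at 76.5, 83.0 and 67.2 CPM in Abca3 cKO and at 86.3, 94.8 and 84.0 CPM in controls. All Abca3 cKO libraries lay below all controls, with less than 1 CPM between the nearest pair. On the log2 scale the difference was -0.23 with SE 0.120 and a 95% interval of -0.48 to 0.031 (edgeR adjusted p = 0.628). Fibroblasts also express Egfr. All 5 fibroblast markers examined had higher means in Abca3 cKO and none was called. The unadjusted p of edgeR was under 0.05 for 4 of them, against 5.07% of all genes tested in that direction. The groups did not overlap for 4, against 7.34%. The sums of the 5 did not overlap, at 990 to 1506 CPM in Abca3 cKO against 711 to 972 CPM in controls. The most abundant were the matrix genes Dcn, at 364 ± 62.3 against 274 ± 35.7 CPM, and Col3a1, at 318 ± 133 against 233 ± 41.9 CPM, and the receptor gene Pdgfra, at 217 ± 49.6 against 142 ± 34.1 CPM. Their part in the Egfr level was not tested.

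Erbb2 (chromosome 11, 98412470 to 98437716, plus strand), the partner receptor, was the 1 tested member with a higher mean in Abca3 cKO, at 67.0, 66.8 and 58.4 CPM against 57.0, 53.5 and 57.7 CPM. The groups did not overlap, and the lowest Abca3 cKO library lay just above the highest control. The fitted log2 fold change of 0.19 had an SE of 0.121 and a 95% interval of -0.066 to 0.45 (edgeR adjusted p = 0.697). Its exons share 9 bases with Mien1 on the opposite strand, which is 0.173% of the exon sequence of Erbb2.

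Erbb3 (chromosome 10, 128567523 to 128589652, minus strand), the neuregulin receptor, stood at 59.5, 69.1 and 77.9 CPM in Abca3 cKO and at 76.6, 78.5 and 53.3 CPM in controls. The ranges overlapped widely and both groups spread by over 15 CPM. Erbb3 had a fitted difference of -0.014 on the log2 scale with SE 0.157 and a 95% interval of -0.35 to 0.32 (edgeR adjusted p = 0.988), and its sign turned in 6 of the 14 alternative settings.

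**Figure D3:**
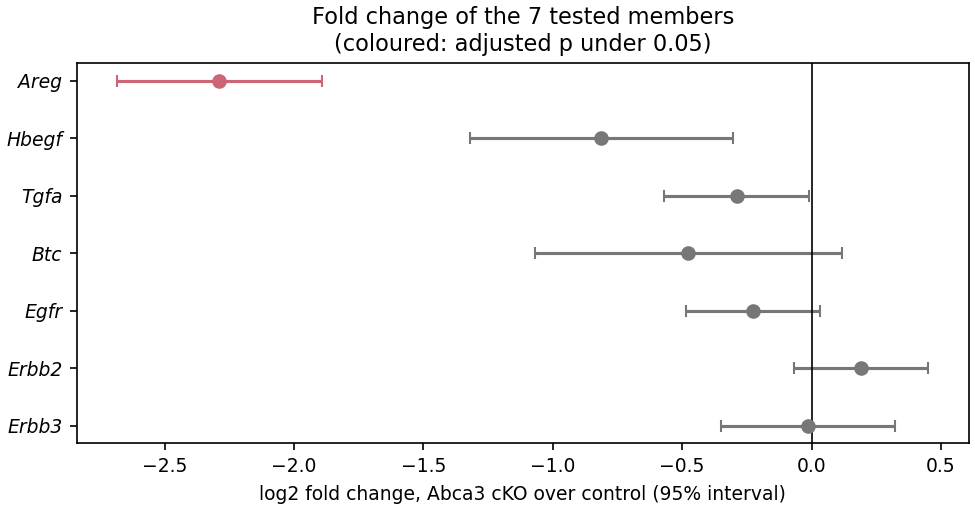
Log2 fold change of Abca3 cKO over control (horizontal axis) with its 95% interval for the 7 tested members, n = 3 per group; the coloured point passed an adjusted p of 0.05. The interval of Areg, -2.68 to -1.89, does not overlap that of any other member, and those of Btc and the 3 receptors include 0.

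Over the family, 6 of the 7 tested members had a log2 fold change below 0, against 49.7% of all genes tested, and the median was -0.29 against 0.0018. The groups did not overlap for 5 of the 7 tested members, against 14.1% of the genes tested in either direction, 6.76% lower and 7.34% higher. The 5, counted on the CPM scale, were Areg, Hbegf, Tgfa and Egfr, lower, and Erbb2, higher. On RPKM the groups overlapped for Erbb2. For the 3 members not tested the groups overlapped. These counts describe a family whose members were chosen with earlier results known.

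Per length, the order of the family differed between the groups. In controls Areg was first on the authors' RPKM scale at 17.9 ± 2.62, followed by Erbb3 at 8.51 ± 1.76, Egfr at 7.41 ± 0.546, Erbb2 at 7.31 ± 0.339, Tgfa at 6.12 ± 0.207, Hbegf at 4.64 ± 1.78 and Btc at 0.883 ± 0.272. The 3 receptors overlapped in that order, as did Tgfa and Hbegf, so their ranks are not distinguished by these libraries. In Abca3 cKO Areg ranked 5 at 3.54 ± 0.336, below Erbb3 at 8.46 ± 1.11, Erbb2 at 8.17 ± 0.599, Egfr at 6.18 ± 0.798 and Tgfa at 4.84 ± 0.249, and above Hbegf at 2.70 ± 0.208. The receptor order depends on the lengths used, since per kilobase of GENCODE exon Egfr stood below Erbb2 in both groups, at 7.80 against 10.8 CPM in controls and 6.67 against 12.3 CPM in Abca3 cKO. Areg was likewise first in controls at 24.7 CPM per kilobase of GENCODE exon and ranked 5 in Abca3 cKO at 5.05.

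The ligand transcripts, summed on the RPKM scale over the 7 genes, came to 11.7, 12.1 and 11.6 in Abca3 cKO and to 28.8, 30.1 and 29.9 in controls. Areg made 60.3% ± 7.53 of that sum in controls and 30.02% ± 2.59 in Abca3 cKO, while Tgfa made 20.7% ± 1.20 and 41.1% ± 1.28. Areg was thus the most abundant ligand transcript in each control library and Tgfa in each Abca3 cKO library. Without Areg the sum ran from 7.95 to 8.55 in Abca3 cKO and from 10.5 to 13.9 in controls. The sum of the 3 receptors was 22.8 ± 0.0970 in Abca3 cKO and 23.2 ± 1.78 in controls.

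**Figure D4:**
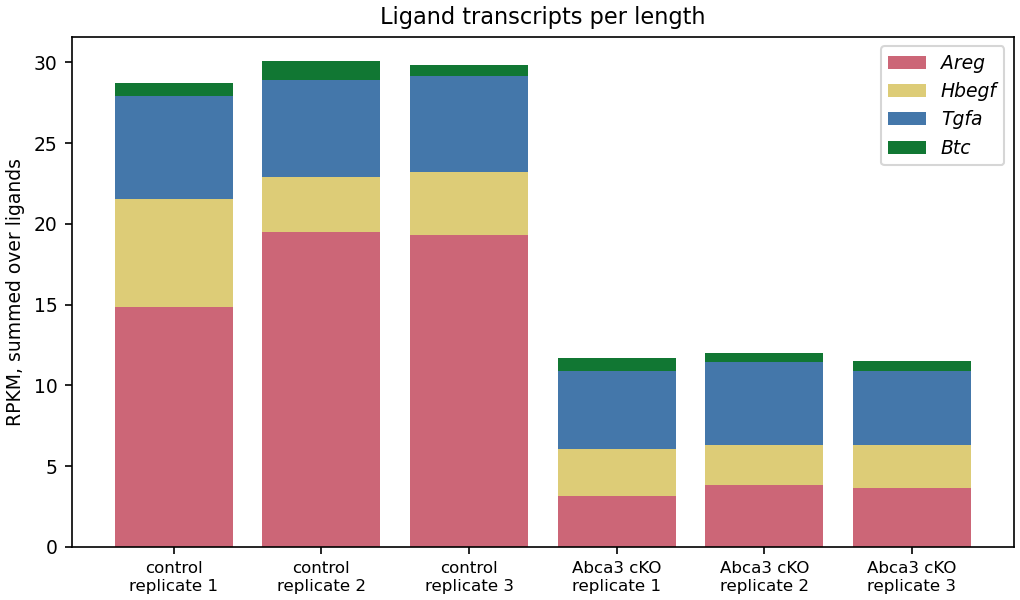
RPKM of Areg, Hbegf, Tgfa and Btc stacked by library (vertical axis, RPKM summed over ligands), with the 3 controls on the left and the 3 Abca3 cKO libraries on the right; Ereg, Epgn and Egf, 0.410% of the sum in Abca3 cKO and 0.191% in controls, are not drawn. The Areg segment is the largest in each control bar and shorter than that of Tgfa in each Abca3 cKO bar.

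Areg lies in a cluster of related genes, with Epgn, Ereg and Btc within 500 kb of its start on chromosome 5. Beside these ligands the tested genes in that distance were Cxcl5, Cxcl15, Cxcl1, Mthfd2l and Parm1. None was called. The chemokine gene Cxcl1 stood at 4.19 ± 0.255 CPM in Abca3 cKO and 5.96 ± 1.06 CPM in controls (adjusted p = 0.643 by edgeR), and Cxcl15, the lung chemokine lungkine, at 6319 ± 889 against 5962 ± 294 CPM (adjusted p = 0.914). Within this distance Areg was the gene that passed the test.

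The genes whose profile over the 6 libraries came closest to that of Areg were sought by the root mean square difference of centred log2 CPM, among 9819 candidates. They were Tnip3 (0.50), the matrix protein gene Thbs1 (0.52), the sulfiredoxin gene Srxn1 (0.54), the transcription factor gene Myc (0.56), the secreted glycoprotein gene Ndnf (0.57) and Maff (0.59). Since the genes were chosen for this profile their levels are a description: Tnip3 had a log2 fold change of -2.81, Myc -1.48, Srxn1 -1.34, Thbs1 -1.30, Ndnf -1.26 and Maff -1.14. Exons of Thbs1 overlap those of a predicted gene on the opposite strand.

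Genes of the wider pathway were then read from 5 lists, chosen with earlier results of these data known. Counts over these lists are a description. Among genes known to be induced by EGF receptor and ERK signalling, 3 of 26 tested fell and none rose over all genes tested with edgeR, against 0.117% of all genes called lower. Without adjustment, p was under 0.05 for 8 lower and 1 higher, against 4.16% and 5.07% of all genes. DESeq2 called 5, against 1.5% of the genes to which it gave an adjusted p. The median log2 fold change of the list was -0.23. The 3 called by edgeR were Maff, a small MAF transcription factor, Myc, and Ptgs2, the inducible cyclooxygenase. Each is also known as a stress or inflammatory response gene.

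Maff stood at 17.0, 17.9 and 22.0 CPM in Abca3 cKO and at 37.0, 45.9 and 42.4 CPM in controls, which is -1.14 on the log2 scale with SE 0.161 (edgeR adjusted p = 0.00475). Myc stood at 4.26, 4.71 and 7.03 CPM against 14.5, 20.2 and 9.80 CPM (log2 fold change -1.48, SE 0.288, adjusted p = 0.0434). Ptgs2 stood at 54.9, 52.2 and 39.8 CPM against 85.7, 126 and 79.4 CPM (log2 fold change -0.99, SE 0.182, adjusted p = 0.0417). None of the 3 overlapped between groups. The call of Maff held in all 6 fits without 1 library. It was the 1 gene of the list called in the fits that left out replicate 1 or replicate 2 of either group, and 2 were called without Abca3 cKO replicate 3.

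EdgeR did not call other well-known immediate early genes. Egr1 stood at 145 ± 13.7 against 136 ± 23.97 CPM (log2 fold change 0.09, adjusted p = 0.913 by edgeR) and Fos at 41.0 ± 11.5 against 43.0 ± 10.4 CPM (log2 fold change -0.07, adjusted p = 0.966). Etv5, a transcription factor of AT2 cells that responds to ERK, stood at 1318 ± 85.5 against 1001 ± 151 CPM (adjusted p = 0.287). These 3 genes were chosen for mention after their values were seen. Of the 8 genes lower at an unadjusted p under 0.05, Egr2, Klf6, Vegfa, Phlda1 and Nr4a1 were not called by edgeR. Their log2 fold changes were -2.37, -0.46, -0.54, -0.58 and -0.80 (edgeR adjusted p = 0.164, 0.166, 0.254, 0.357 and 0.467). DESeq2 called Egr2 and Klf6 (adjusted p = 0.035 and 0.0343). Etv5 was the 1 gene higher at an unadjusted p under 0.05.

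**Figure D5:**
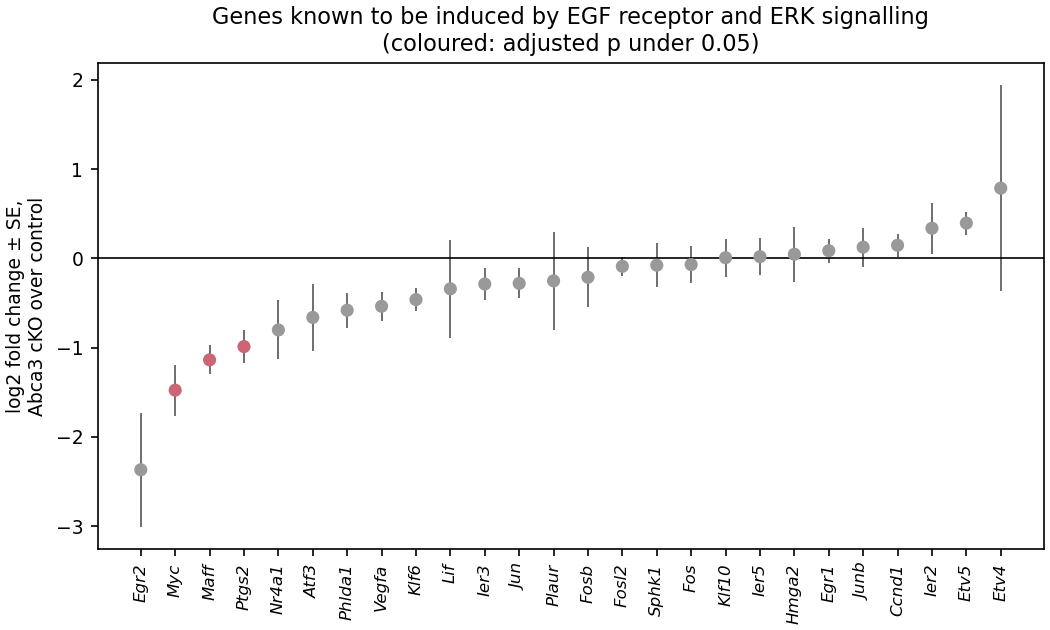
Log2 fold change ± SE of Abca3 cKO over control (vertical axis) for the 26 tested genes known to be induced by EGF receptor and ERK signalling, ordered by value; coloured points passed an adjusted p of 0.05. Myc, Maff and Ptgs2 are coloured at -1.48, -1.14 and -0.99. Egr2, at 0.363 CPM in Abca3 cKO and 1.90 CPM in controls, lies lower without passing in edgeR (adjusted p = 0.164, and 0.035 by DESeq2).

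Inhibitors, feedback regulators and trafficking factors of the receptor held no edgeR call among 24 tested genes (median log2 fold change -0.06). The unadjusted p was under 0.05 for 1 higher and 3 lower, against 5.07% and 4.16% of all genes tested. DESeq2 called 2, against 1.5% of the genes to which it gave an adjusted p. Ptprj, a receptor tyrosine phosphatase that acts on the EGF receptor, stood at 111 ± 16.5 CPM in Abca3 cKO and 171 ± 18.9 CPM in controls, which edgeR put at -0.62 on the log2 scale (adjusted p = 0.0625, and 0.00377 by DESeq2). Usp8, a deubiquitinase that acts on receptors in endosomes, stood at 792 ± 110 against 538 ± 21.6 CPM (log2 fold change 0.56, SE 0.123, adjusted p = 0.0759 by edgeR and 0.00195 by DESeq2). Spred1, an inhibitor of RAS signalling, stood at 115 ± 7.05 against 140 ± 17.2 CPM (adjusted p = 0.461). The ERK-induced feedback inhibitors Dusp6 and Spry4, chosen after their values were seen, had log2 fold changes of 0.21 and 0.54 (adjusted p = 0.780 and 0.544 by edgeR). Others of their families went the other way, with Spry2 at -0.30, Dusp4 at -0.39 and Dusp10 at -0.49 (adjusted p = 0.541, 0.663 and 0.755 by edgeR). Of the 24 genes 14 had a log2 fold change below 0.

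Proteases and partners of ligand release also held no edgeR call among 18 tested genes (median log2 fold change -0.02). At an unadjusted p under 0.05, 2 were lower and none higher, against 4.16% and 5.07% of all genes tested. DESeq2 called 1, against 1.5% of the genes to which it gave an adjusted p. Adam17, the main sheddase of Areg, Hbegf and Tgfa, chosen after its values were seen, differed by 0.07 on the log2 scale (adjusted p = 0.924 by edgeR). The tetraspanin gene Tspan8 stood at 79.9 ± 8.67 CPM in Abca3 cKO and 125 ± 30.1 CPM in controls (adjusted p = 0.149 by edgeR and 0.0205 by DESeq2). Timp3, an inhibitor of ADAM17, stood at 1677 ± 111 against 2257 ± 514 CPM (adjusted p = 0.350), and Furin, a proprotein convertase, at 61.4 ± 3.19 against 51.7 ± 2.74 CPM (adjusted p = 0.576).

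Adaptors and transducers downstream of the receptors held no call among 25 tested genes (DESeq2 called 0, median log2 fold change -0.03). At an unadjusted p under 0.05, 2 were lower and none higher, against 4.16% and 5.07% of all genes tested. Those with the smallest p were Nras, a RAS gene, at 114 ± 5.32 against 144 ± 8.43 CPM (adjusted p = 0.254 by edgeR), the PI3-kinase gene Pik3cb at 48.3 ± 10.8 against 63.9 ± 4.40 CPM (adjusted p = 0.410) and the phosphatase gene Ptpn11 at 95.6 ± 5.49 against 111 ± 9.04 CPM (adjusted p = 0.621). Of ERBB4 and the 4 neuregulins, the ligands of ERBB3 and ERBB4, 3 genes were tested and none was called or had an unadjusted p under 0.05, with DESeq2 calling 0. Nrg1 stood at 6.85 ± 1.63 CPM in Abca3 cKO and 9.06 ± 0.609 CPM in controls, Nrg4 at 2.01 ± 1.41 against 1.15 ± 0.451 CPM and Nrg2 at 1.55 ± 1.14 against 0.699 ± 0.212 CPM. Erbb4 had 3, 14 and 0 counts in Abca3 cKO and 7, 8 and 0 in controls, and Nrg3 had 0 counts throughout.

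Markers of other cells were read beside these genes. All 10 markers of alveolar type 1 cells had log2 fold changes below 0 (median -0.34), against 49.7% of all genes tested. EdgeR called none. DESeq2 called 2, Clic5 and Akap5, both lower (adjusted p = 0.0168 and 0.0111), against 1.5% of the genes to which it gave an adjusted p. The list had summed levels of 2384 to 3330 CPM in Abca3 cKO and 3054 to 4062 CPM in controls that overlapped. The most abundant were Clic5 at 583 ± 116 against 887 ± 147 CPM, Emp2 at 563 ± 80.0 against 641 ± 94.5 CPM and Akap5 at 520 ± 101 against 771 ± 75.1 CPM. Mesothelial markers summed to 296 to 587 CPM in Abca3 cKO against 262 to 320 CPM, ciliated markers to 85.6 to 105 against 102 to 109 CPM, endothelial markers to 39.9 to 84.6 against 49.5 to 93.3 CPM and neutrophil markers to 7.51 to 12.6 against 7.65 to 12.2 CPM. The leukocyte and macrophage sum, 6373 to 11134 against 4198 to 11269 CPM, was nearly all Lyz1, which AT2 cells of the mouse also express, and the pan-leukocyte gene Ptprc was at 0.703 ± 0.673 against 1.33 ± 0.219 CPM. EdgeR called no tested marker of a cell type other than AT2, and DESeq2 called Clic5 and Akap5. Markers that did not pass the filter on low counts were not tested by edgeR. The part of these cells in the ligand levels was not tested.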

How the data were processed

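The authors deposited a table of counts, whole numbers of reads per gene and library that are not normalized, and a table of RPKM values, reads scaled by gene length and depth by the authors. Per the submitters' processing notes, the tools were TopHat2 2.0.8, Bowtie2 2.1.0, DESeq and Cufflinks 2.0.2, with build mm10 (GRCm38). Not given in the sources used here are the counter, its strand setting and the annotation. Per the labels' protocols, RNA was amplified with a kit that does not mark strand, and the counts are not of single molecules. A second sheet of gene symbols without values was not used.

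The count model was edgeR 4.0.16 under R 4.3.3, with filterByExpr, TMM scaling, a robust glmQLFit on group alone and the two-sided glmQLFTest. The filter kept 14477 of 23478 genes and 7 of the 10 members. The SE is the log2 fold change over the square root of F. CPM of genes that did not pass the filter use the same scaled library sizes. No libraries of a group repeated each other (chi-square per degree of freedom 30.5 to 52.1). Alternatives used DESeq2 1.42.0, limma 3.58.1 on log2(RPKM + 1 or 0.1), other scalings, no filter, fits without 1 library and a replicate block. The rule for named genes took all members, each list's called genes and its 3 smallest p, the 6 profiles most like Areg (mean of at least 5 CPM, prior count 2), genes within 500 kb of Areg and the 3 most abundant markers of a cell type. Marker lists are given mainly as sums, and genes outside the rule were chosen after their values were seen. Members, lists and motifs were chosen with earlier results of these data known. Coordinates and exons are from GENCODE M21 and promoters from RefSeq, both on GRCm38.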

Additional observations from a re-analysis of the deposited data

How the results depend on the processing

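Areg was called in all 14 alternatives and was the 1 member called in each. Hbegf, Tgfa, Btc, Egfr and Erbb2 kept their direction and were called in none of them. Erbb3 turned to a log2 fold change of 0.0038 on RPKM with a pseudocount of 1, with or without a filter, and 0.0058 with a pseudocount of 0.1, and ran from -0.18 to 0.084 over the fits without 1 library, a value near 0. The number of genes called, 55, was 132 without a count filter, 233 with DESeq2, and 15, 13 and 2 on RPKM with a pseudocount of 1, of 0.1 and without a filter; it ran from 21 to 50 without 1 library, with 18 of the 21 shared with the 55. The cause was not tested. The count of ERK-induced genes called lower, 3, ran from 0 on unfiltered RPKM to 5 with DESeq2, in counts added after seeing the data. With the replicate number as a block 33 genes were called and Areg had an adjusted p of 0.000399 by edgeR. Deviations of same-numbered libraries from their group means had correlations of 0.08, -0.03 and -0.03. With 3 libraries per group these values cannot decide whether the libraries were paired, and the labels do not say. Few reads limit what can be said of Ereg, Egf, Epgn and Erbb4.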

Other observations

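The ratio of Egfr to Erbb2 was noticed after the values were seen and is given without a test. On the RPKM scale it was 0.711, 0.857 and 0.701 in Abca3 cKO and 0.979, 1.15 and 0.924 in controls, so the groups did not overlap. Whether Egfr lies above or below Erbb2 depends on the gene lengths used: per kilobase of GENCODE exon the mean of Egfr was below that of Erbb2 in both groups, at 6.67 against 12.3 CPM in Abca3 cKO and 7.80 against 10.8 CPM in controls. Neither gene was called by itself in edgeR, and the ratio does not say which of them changed.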
